A study of Drosophila melanogaster with 9 samples.

Results

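The polyadenylated RNA of control *Drosophila melanogaster* embryos at stage 16 is described here, from the 3 control samples of a series of 9. The other samples are mutant embryos and enter no comparison. The controls were chosen by their labels, which give the genotype as WT and name no strain, and all 15228 genes of the deposited count table were used. Each sample was made from 200 whole embryos, so tissues are mixed in every value. The paper calls the samples independent and does not say how they were collected. In whole embryos, fewer cells of a type and less RNA per cell cannot be told apart.

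Stage 16 falls late in embryogenesis, when the organs of the future larva have formed and terminal differentiation is under way. Muscles assemble sarcomeres, neurons form synapses, tracheal tubes mature, and epidermal cells secrete the larval cuticle after shaping the actin-based extensions called trichomes. Poly(A) selection keeps messenger RNAs and polyadenylated noncoding RNAs, and loses most ribosomal RNA and the replication-dependent histone messages, which end in a stem-loop.

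The control samples held 27958222, 26805110 and 21048610 counts. The samples were not alike in every gene: cuticle, *Osiris* and midgut genes differed between them. Among the largest ratios were those of transcripts known from the much earlier, cellularizing embryo. Controls 1 and 2 contained these transcripts, which were nearly missing from control 3. For example, *bnk*, which acts in cellularization of the blastoderm, had 307, 1066 and 7 counts in controls 1, 2 and 3. These early transcripts made up a very small share of the RNA, and the values for all of these groups and the results without each sample are given with the comparison of the samples.

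A gene was called detected at a mean of at least 1 CPM (the count of a gene per 1000000 counts of its sample). By this rule 10140 of the 15228 genes were detected and together they held 99.9% of counts, while 508 genes had no count in any control. Of the 12854 protein-coding genes, 9843 (76.6%) were detected, the share to set beside the detected members of each list below. At least 1 count was found for 13970, 13810 and 13715 genes in controls 1, 2 and 3, and for 12904 genes in all 3. The RNA was spread over many genes. The 10 highest genes held 5.33 ± 0.134% of counts (mean ± SD of the 3 samples, as in all values below), the 100 highest 22.4 ± 0.214% and the 1000 highest 59.4 ± 0.248%. It took 614, 600 and 617 genes to reach 50% of counts, and 4090, 4091 and 4140 to reach 90%.

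**Figure D1:**
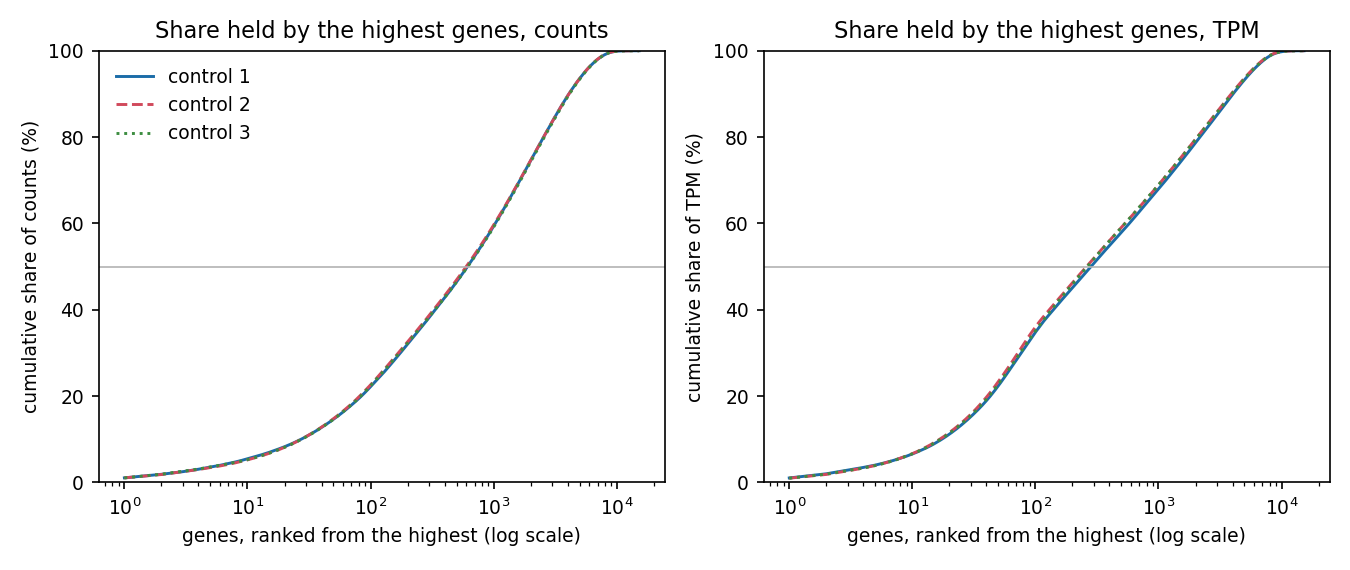
Cumulative share of counts (left) and of TPM (right), in percent, against the rank of the gene from the highest (log scale), with 1 line per control sample and a grey line at 50%. The 3 lines lie on each other; the 100 highest genes held 22.4% of counts and 35.3% of TPM.

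Counts grow with the length of a transcript, so levels of different genes were compared as TPM (transcripts per 1000000), in which each count is divided by the exonic length of the gene before scaling to a sum of 1000000. On this scale the RNA was more concentrated: the 100 highest genes held 35.3 ± 0.630% and 283, 261 and 265 genes reached 50%. The 149 genes above 1000 TPM held 41.4% of TPM and 25.4% of counts, and 78 of them encode cytosolic ribosomal proteins. These abundant genes were short, with a median exonic length of 1091 bases, against 2318 bases for the 6233 genes between 10 and 100 TPM. A further 3852 genes lay above 0 and at most at 1 TPM, and of these 62.4% were protein coding, against 98.7% in the class from 10 to 100 TPM.

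The highest gene per length was *RpL41*, which encodes the smallest protein of the large ribosomal subunit, at 10377, 9823 and 9607 TPM in controls 1, 2 and 3. *Act57B*, the actin of embryonic and larval muscle, followed with 9649.9, 8783 and 9752 TPM. *eEF1alpha1*, the elongation factor that brings aminoacyl-tRNA to the ribosome, had 8753, 8356 and 8219 TPM. The ranges of *RpL41* and *Act57B* overlapped, so that the 3 samples do not fix their order, while *eEF1alpha1* was below both in every sample.

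Of the 30 genes with the highest mean TPM, 24 encode cytosolic ribosomal proteins. Besides *Act57B* and *eEF1alpha1*, the others were *CG13159* (5194, 6386 and 5489 TPM), *nur* (3673, 4945 and 3929 TPM), for which no role is given here, and the cuticle protein genes *TwdlM* and *Cpr65Ea*. *TwdlM*, of the Tweedle family of cuticle proteins, had 4152, 4198 and 5782 TPM, with control 3 highest. *Cpr65Ea*, whose product carries the chitin-binding Rebers-Riddiford motif, had 3006, 4557 and 4919 TPM, with control 1 lowest. The place of single genes in this order depended on the length used: 28 of the 30 remained among the 30 highest with the longest annotated transcript, but 15 with the coding length alone.

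**Figure D2:**
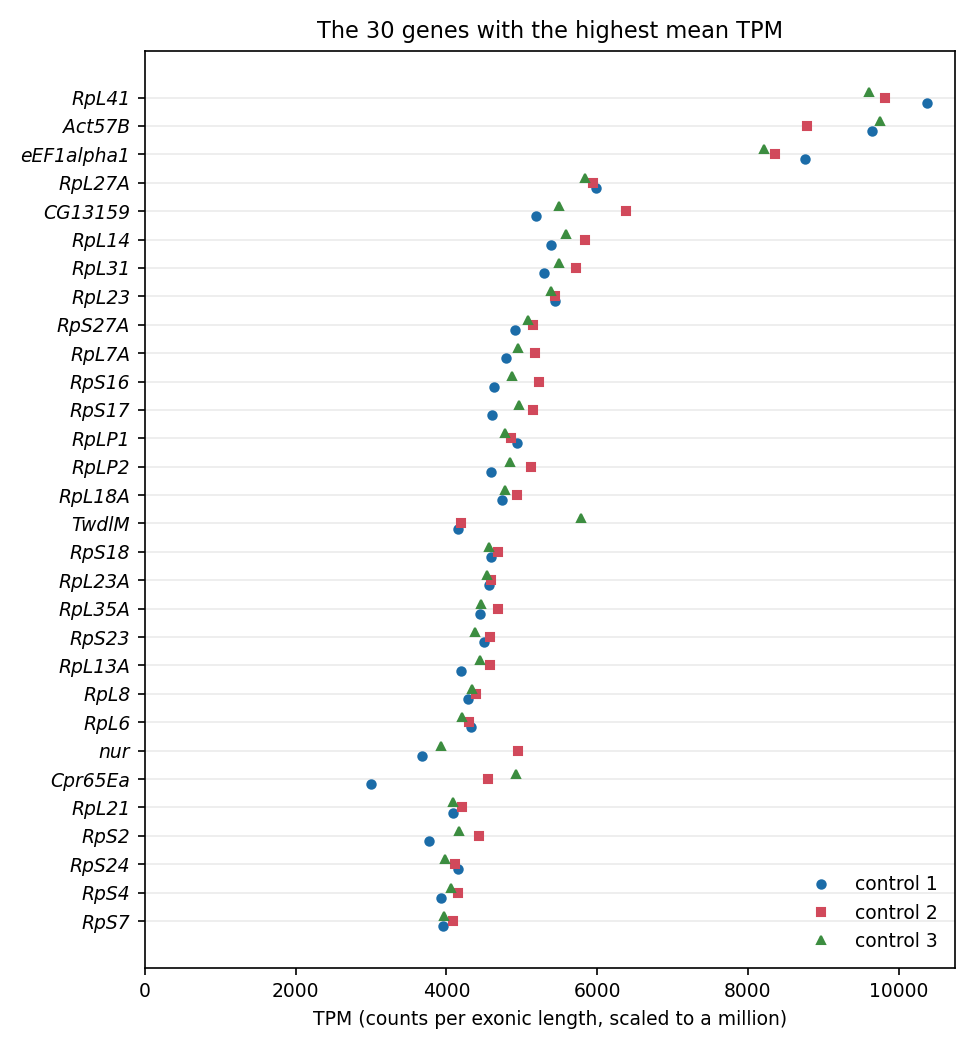
TPM (horizontal axis, starting at 0) of the 30 genes with the highest mean TPM, with 1 point per control sample. *RpL41*, *Act57B* and *eEF1alpha1* lie apart from the rest, at means of 9936, 9395 and 8442 TPM, and the ribosomal protein genes have closely spaced points, while those of *Cpr65Ea*, *TwdlM* and *nur* are spread.

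By share of the counts, which is the share of the sequenced fragments, longer transcripts moved up, and 9 genes were among the 30 highest on both scales. *eEF1alpha1* was first, with 10644, 10569 and 10442 CPM, or 1.06% of all counts. *Act57B* was second with 8210.5, 7774 and 8669 CPM. Next was a noncoding RNA, *lncRNA:CR42862*, with 6164, 6709 and 7041 CPM. *Mhc*, the single gene for muscle myosin heavy chain, followed with 5598, 4633 and 4906 CPM over an exonic length of 9058 bases. *apolpp*, which encodes the apolipoprotein of the circulating lipid carrier, reached 3681, 3253 and 2849 CPM over 11766 bases, but its level per length was 547 ± 82.5 TPM. Also in this group were *eEF2*, the translocation factor of the ribosome, with 4932 ± 79.6 CPM, and *pAbp*, the poly(A)-binding protein, with 3541 ± 205 CPM.

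The transcripts were then grouped into 54 lists of genes with members in the table, by function or by the tissue they are known to mark. The lists held 1488 genes and 35.4 ± 0.319% of counts, and some genes stand in more than one list. A share of counts gives weight to long transcripts, and 30 of the 54 shares differed by more than 1.5 times between counts and TPM. The remaining counts belong to genes in no list, so the shares below say how the listed functions compare and are not a division of the whole embryo.

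Translation was the largest of these functions. The 87 genes for cytosolic ribosomal proteins held 12.4%, 13.5% and 13.1% of counts in controls 1, 2 and 3, and 27.6 ± 0.557% of TPM. Of these, 75 lay within 2-fold of their median of 3291 TPM. The 4 lowest members were copies with a second, higher paralog: *RpS28a* (0.520 TPM), *RpS10a* (2.66 TPM), *RpL37b* (3.24 TPM) and *RpS19b* (5.05 TPM). Reads shared by near-identical copies may have been split or dropped in counting, so the levels of such pairs are uncertain. Of the other low members, *RpS5b*, *RpS14b*, *RpL34a* and *RpS15Ab* are also paralogs, with means from 164 TPM for *RpS15Ab* to 761 TPM for *RpL34a*. *RpS9*, *RpL38* and *RpL5*, which have no second copy in the list, were low as well, at 538, 1187 and 1289 TPM. The 51 genes for translation factors added 2.87 ± 0.0103% of counts, with 1.06% from *eEF1alpha1* and 0.493% from *eEF2*.

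Of the tissue lists, that of muscle had the largest share of counts, at 3.74%, against 1.90% for cuticle proteins. By exonic length the order turned, to 2.68% and 3.95% of TPM. By coding length the shares were close, at 2.85% and 2.93%, so the order depends on the length used. The 33 sarcomere genes held 3.84%, 3.52% and 3.86% of counts. Of these, 29 were detected (87.9%, beside 76.6% of all protein-coding genes). *Act57B* stood far above the other actins on the TPM scale: *Act5C*, a cytoplasmic actin, had 1987 ± 166 TPM, *Act87E*, a second muscle actin, 1230.0 ± 133 TPM, *Act42A*, also cytoplasmic, 836 ± 22.6 TPM, and *Act79B*, an actin of adult muscle, 2.1 ± 0.276 TPM. The coding parts of actin genes are alike, and reads between them could have been divided in counting. The light chains *Mlc2* and *Mlc1* had 3287 ± 119 and 1569 ± 70.2 TPM, against 1099.7 ± 135 TPM for the heavy chain *Mhc*. *TpnC73F*, a troponin C gene, had 1500.4 ± 86.2 TPM, *wupA*, which encodes troponin I, 1391 ± 58.6 TPM and *Tm2*, a tropomyosin gene, 1065 ± 64.4 TPM. Between samples, 2 of the 28 sarcomere genes with enough counts differed by 1.5-fold or more (7.14%), a share near the 9.48% of all genes tested.

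Genes of the cuticle also held a large share. The 125 genes for cuticle proteins, most from the Cpr and Tweedle families, held 1.66%, 1.79% and 2.25% of counts in controls 1, 2 and 3, and 3.95 ± 0.612% of TPM. The list was uneven: its median gene had 20.6 TPM, its upper quartile lay at 342 TPM and its highest member, *TwdlM*, at 4710.5 ± 928 TPM. After *TwdlM* and *Cpr65Ea* came *TwdlD* with 1991, 2997 and 3057 TPM and *TwdlB* with 2123, 1733 and 2846 TPM. The 25 *Osiris* genes, a cluster of genes for secreted or membrane proteins of cuticle-forming epithelia, held 1.16%, 1.04% and 0.717% of counts. *Osi6* and *Osi7* accounted for much of this, with 4036, 2864 and 1828 CPM for *Osi6* and 4131, 3615 and 2348 CPM for *Osi7*, lowest in control 3 for both.

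Genes that act in the chitin layer and on the cell surface of the epidermis had higher median levels than the lists above: 45.5 TPM for chitin genes and 78.5 TPM for trichome effectors, against 29.8 TPM for *Osiris* genes and 20.6 TPM for cuticle proteins. Their highest members were lower, at 1412 and 354 TPM. *kkv*, the chitin synthase, had 302, 284 and 227 CPM. The deacetylases *verm* and *serp*, which modify chitin in the tracheal lumen and cuticle, had 1412 ± 44.2 and 721 ± 28.3 TPM. *Gasp* and *obst-A*, which encode chitin-binding proteins, had 1015 ± 161 and 817 ± 165 TPM. The 39 chitin genes together held 1.01 ± 0.0422% of counts. The 12 trichome effectors held 0.269%, 0.256% and 0.201%, with *dyl*, a zona pellucida domain gene of the trichome surface, highest at 354 ± 101 TPM. The 21 tanning and pigment genes held 0.0712 ± 0.00192% of counts: *Ddc*, dopa decarboxylase, had 69.2, 61.1 and 88.2 CPM and *ple*, tyrosine hydroxylase, 103, 71.3 and 72.3 CPM.

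Epithelial barrier and matrix genes held larger shares of counts than of TPM. The 25 septate junction genes, which seal epithelia, held 1.06 ± 0.0317% of counts and 0.535 ± 0.00926% of TPM. All of them were detected, beside 76.6% of all protein-coding genes. *Atpalpha*, the sodium pump subunit of the junction, had 1848, 1532 and 1664 CPM, and *Ssk*, of the smooth septate junction, 203, 201 and 233 CPM. The 12 basement membrane genes held 1.23%, 1.03% and 1.002% of counts, but only 0.336 ± 0.0392% of TPM. Their leading members were *Col4a1*, collagen IV, with 2369.8, 1838 and 1889.9 CPM and *LanA*, a laminin chain, with 1979, 1788 and 1603 CPM, both highest in control 1.

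The 40 neuronal and synaptic genes were all detected, beside 76.6% of all protein-coding genes. They held 0.597%, 0.519% and 0.588% of counts, but only 0.153 ± 0.0141% of TPM, since many are long. *fne* and *elav*, RNA-binding proteins of neurons, had 153 ± 5.62 and 42.6 ± 4.0 TPM. The synaptic vesicle genes *nSyb* and *Syt1* had 232, 166 and 201 CPM and 219, 175 and 216 CPM, both lowest in control 2. *para*, the voltage-gated sodium channel, had 193, 154 and 205 CPM. The 14 glial genes held 0.156 ± 0.00879% of counts, and *repo*, the glial transcription factor, had 37.6, 42.0 and 37.2 CPM. Among 41 neuropeptide genes, *Nplp2* was far above the others at 1974 ± 26.9 TPM, and the next, *Ilp4*, had 65.7 ± 2.87 TPM. The median of this list was 4.20 TPM. Whole embryos do not show which cells express these genes, so their RNA cannot be assigned to neurons.

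The lists of smaller organs held a fraction of a percent each. The 14 tracheal genes held 0.682 ± 0.0424% of counts. They include *verm*, *serp*, *Gasp* and *obst-A*, which were given with the chitin genes above, with means of 1697 CPM for *verm* and 929 CPM for *serp*. These shared genes made up most of the list's 0.481% of TPM, so its share cannot be read as that of the trachea alone. *trh*, the transcription factor of tracheal fate, had 113, 124 and 115.4 CPM. The 16 fat body and lipoprotein genes held 0.418 ± 0.0440%, most of it *apolpp*. Of these, 10 were detected (62.5%, beside 76.6% of all protein-coding genes). *Desat1*, a fatty acid desaturase, had 183, 137 and 192 CPM, and *Lsd-2*, a protein of lipid droplets, 257, 272 and 287 CPM. Others were close to 0: the larval storage protein gene *Lsp1beta* had 1, 2 and 3 counts, and *Adh*, alcohol dehydrogenase, had 0, 6 and 0 counts. *Fbp1*, the receptor for storage proteins, had 34, 20 and 6 counts, so that of the 4 fat body markers checked *apolpp* alone had a mean above 1 CPM, although *Fbp1* reached 1.22 CPM in control 1.

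The 16 hemocyte genes, for blood cells, held 0.136 ± 0.00499% of counts. Genes of crystal cells, the blood cells that store prophenoloxidase, led this list: *PPO2* had 254, 259 and 253 CPM and *PPO1* 202, 211 and 183 CPM. Of the other hemocyte markers checked, *Pxn* had 184, 149 and 142 CPM and *crq* 47.7, 42.3 and 42.8 CPM. *Hml*, a marker of larval plasmatocytes, was the lowest of them with 6.62, 2.65 and 5.13 CPM. The 60 midgut digestive genes held 0.122%, 0.0958% and 0.118%, led by *Npc2g*, of the Npc2 family of sterol-binding proteins, at 219.7 ± 24.2 TPM, and *mex1*, a midgut membrane gene, had 60.8, 79.2 and 68.9 CPM. The heart list held 0.0771 ± 0.00658%, with *prc*, a matrix protein of the heart, at 322, 225 and 315 CPM and *tin*, the cardiac transcription factor, at 6.04, 4.59 and 7.84 CPM. The salivary gland list held 0.0919 ± 0.00141%, with *fkh* at 151, 129.6 and 136 CPM and *sage*, which is bound to that gland, at 10.4, 10.9 and 11.8 CPM. The germ line list held 0.0892 ± 0.00140%, with 0.031% from *RpS5b*, which is counted there too, while *vas*, the germ line helicase, had 6.37, 6.23 and 7.60 CPM.

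Genes of cell metabolism and growth lay between these groups. The 86 oxidative phosphorylation subunits of the nuclear genome held 1.67 ± 0.0830% of counts and 2.90 ± 0.0870% of TPM, led by *ATPsynC* at 2010.1 ± 103 TPM. The 31 proton pump (V-ATPase) genes held 0.771 ± 0.04997%, and *Vha16-1* alone had 2314, 1987 and 2267 CPM. The 14 glycolytic enzymes held 0.410 ± 0.00851%. Replication and mitosis genes were still detected, as all 30 and all 18 members of their lists, at 0.0887 ± 0.00384% and 0.118 ± 0.000760% of counts. *CycA*, the mitotic cyclin, had 202, 197 and 199.7 CPM and *stg*, the Cdc25 phosphatase that drives entry into mitosis, 177, 168 and 198 CPM. No mitochondrially encoded transcript was analysed here.

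The listed patterning genes were all detected, beside 76.6% of all protein-coding genes, at modest levels. The 8 Hox genes held 0.0726 ± 0.00139% of counts, led by *abd-A* with 245, 263 and 250.1 CPM. Of 10 segment polarity genes, *arm*, the fly beta-catenin, which also serves adherens junctions, was highest at 568 ± 18.3 TPM and *wg*, the Wnt ligand, had 25.1 ± 0.781 TPM. Among 14 ecdysone response genes, *ftz-f1*, a nuclear receptor expressed after a hormone pulse, led with 684, 749 and 769.9 CPM.

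Transcripts of adult reproduction and of the senses held very small shares. Of 102 odorant and gustatory receptor genes, 10 were detected and the whole list held 0.00464 ± 0.000474% of counts. The 17 yolk and eggshell genes, 1 of them detected, held 0.000365 ± 7.31e-05%, and the 49 male reproductive genes, 3 of them detected, 0.00286 ± 0.000238%. Of the 15 photoreceptor genes 11 were detected (73.3%), near the 76.6% of all protein-coding genes. Their levels were low, with a median of 1.23 TPM over the list and 0.00545 ± 0.000162% of counts. The yolk protein gene *Yp1* had 5, 1 and 1 counts, and *ninaE*, the main rhodopsin, 12, 17 and 13 counts. Of 18 antimicrobial peptide genes, 2 were detected, and *Drsl5* gave most counts of the list with 33.4, 40.1 and 31.2 CPM. Of 13 inducible heat shock genes 7 were detected, and the list held 0.0395 ± 0.00393%, most of it *lncRNA:Hsromega*, while *Hsp67Bc* was highest per length at 100.3 TPM. Among histone genes, the variants *His3.3B* and *His2Av*, whose messages are polyadenylated, had 1179.9 ± 56.4 and 700.0 ± 18.6 TPM, while the highest replication-dependent histone gene of the table, *His2B:CG33868*, had 20, 22 and 33 counts. These histone genes exist as many near-identical copies, of which 4 are in the table, so that their counts are uncertain, and the part of poly(A) selection in them was not tested.

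**Figure D3:**
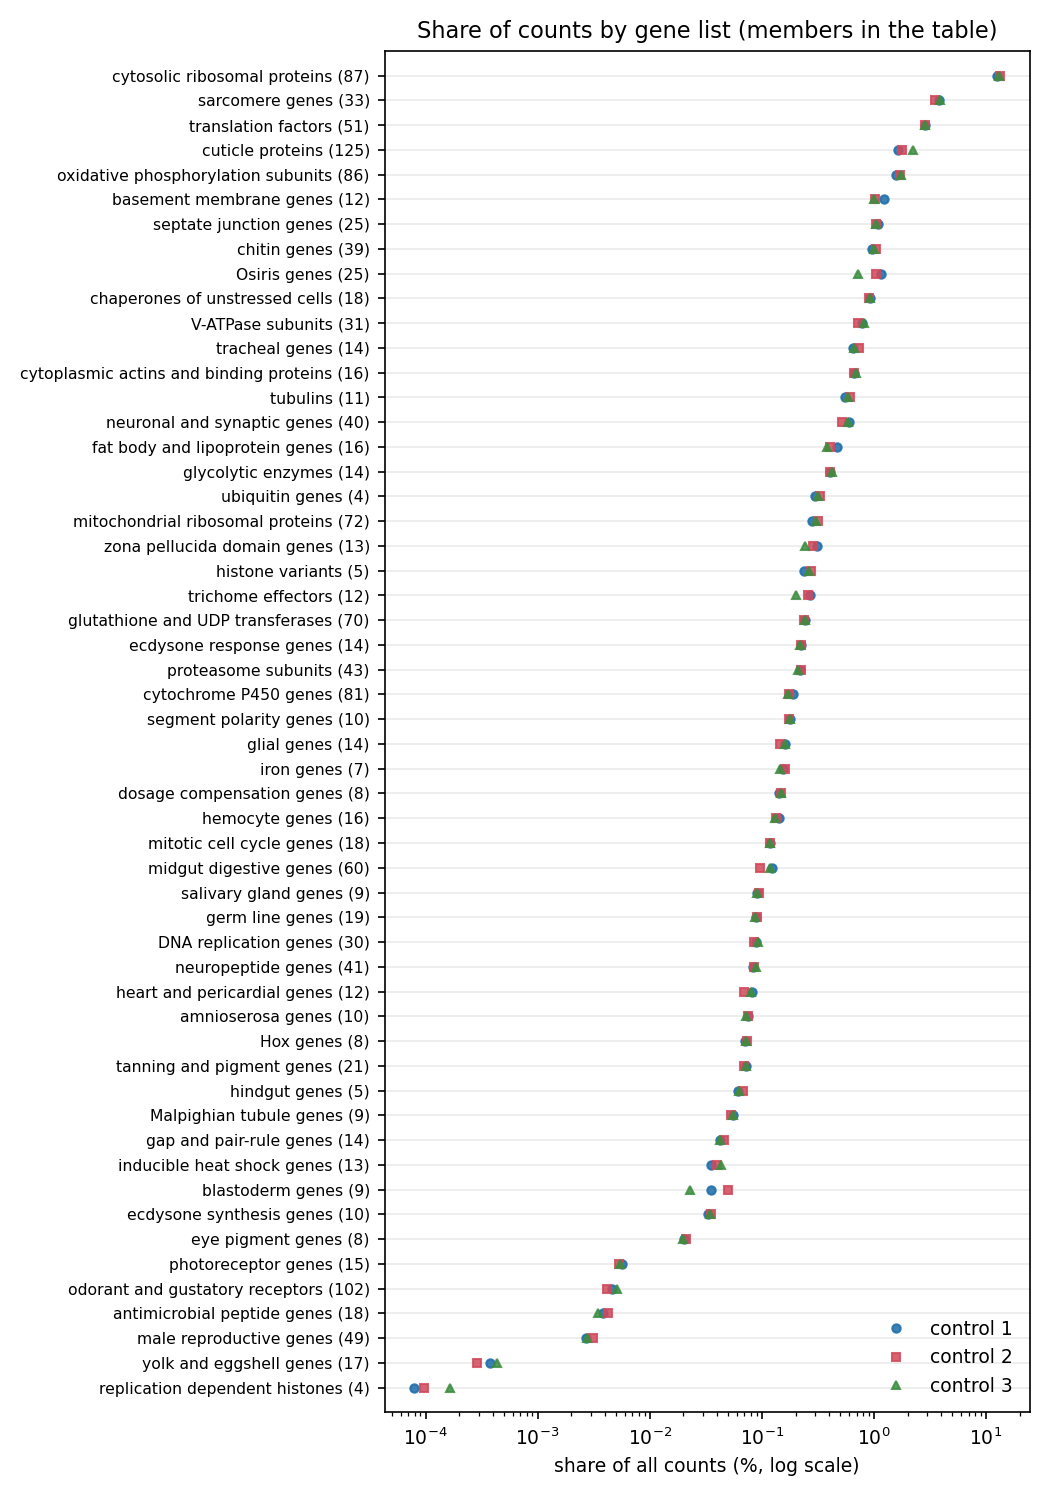
Share of all counts (percent, log scale) of each of 54 gene lists, with 1 point per control sample and the number of members in the table in parentheses. The shares run from 12.99% for cytosolic ribosomal proteins to 0.000114% for replication-dependent histones, and points of a list mostly overlap, with *Osiris*, cuticle, trichome and blastoderm genes among those that separate.

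Protein-coding genes held 98.5 ± 0.0645% of counts and the 1797 genes annotated as noncoding RNA 0.988 ± 0.0622%. Of the noncoding genes 216 were detected, and *lncRNA:CR42862* gave most of their counts, at 6638 ± 443 CPM and 2383 ± 106 TPM. The next was *lncRNA:roX1*, an RNA of the complex that raises transcription of the male X, with 702, 773 and 794 CPM. *lncRNA:Hsromega*, the heat-inducible nuclear RNA, had 228, 273 and 254 CPM. The other noncoding genes among the 10 highest had means from 209 CPM for *lncRNA:CR31451* to 68.4 CPM for *lncRNA:cherub*.

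The share of each chromosome was nearly the same in every control. The arms 2L, 2R, 3L, 3R and X held 17.4%, 20.8%, 19.3%, 24.4% and 15.5% of counts, with SDs of at most 0.147%. Their detected genes had similar median levels, from 26.8 TPM on the X to 29.9 TPM on 3L. The fourth chromosome, which is small and largely heterochromatic, held 2.23 ± 0.0531% of counts over 108 genes, and its 86 detected genes had a median of 60.9 TPM. *apolpp*, *RpS3A* (2465 ± 129 CPM), a ribosomal protein gene, and *ATPsynbeta* (1764 ± 55.5 CPM), of the ATP synthase, lie on it. On the Y, 3 of 51 genes were detected.

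How far the control samples agree was asked of the 9538 genes with a mean of at least 50 counts, after scaling by trimmed mean of M values (TMM). The highest sample was within 1.2-fold of the lowest for 5988 genes (62.8%), and the median ratio was 1.15. Between pairs of samples, Pearson's r of log2 values across these genes was 0.986 for controls 1 and 2, 0.988 for controls 1 and 3 and 0.980 for controls 2 and 3; this describes agreement across genes, which are not independent replicates. The biological coefficient of variation, the spread between samples beyond counting error, was 0.127 by edgeR as 1 common value for these genes. Fitted by edgeR as a trend over level instead, it was larger for low genes. Its median on that trend was 0.215 for genes with 50 to 200 counts and 0.1004 for the 1037 genes with the highest counts.

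The remaining differences were larger than counting error for many genes. A chi-square test of homogeneity with Benjamini-Hochberg adjustment called 5466 of the 9538 genes (57.3%), and without controls 1, 2 and 3 it called 3517, 3232 and 4522. The test covers counting error only and takes counts as independent molecules, which PCR reads are not, and at this depth it calls small differences in high genes. The samples differed by more than this sampling noise and were counted as 3. At least a 1.5-fold gap between the highest and the lowest sample was found for 904 genes (9.48%), and at least 2-fold for 273. Control 2 was the lowest sample in 557 of the 904 genes (61.6%), and control 1 the highest in 402 (44.5%). The most frequent pattern was control 1 highest and control 2 lowest, in 298 genes (33.0%), followed by control 3 highest and control 2 lowest in 259 (28.7%). Control 2 was highest and control 3 lowest in 95 genes (10.5%). Without control 2, 301 genes passed 1.5-fold and the coefficient of variation was 0.102, while without control 1 or control 3 they were 556 genes and 0.139, or 596 genes and 0.141.

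Among the largest ratios were those of genes known for their use in the early embryo. All 15 genes with the largest ratio between samples were highest in control 2 and lowest in control 3, where they had 0 to 113 counts. Of these, 11 have a single exon, beside 10.04% of all genes tested. The list of 9 blastoderm genes had 6 of 8 tested members past 1.5-fold, beside 9.48% of all genes. This list, like the others, was chosen with earlier results of these data known, so its count is no independent test. *slam*, which organizes the furrows of cellularization, had 1588, 4612 and 113 counts, and *term* 273, 530 and 12. *Z600*, a regulator of the blastoderm cell cycle, had 116, 250 and 1 counts, and *CG7271* had 247, 596 and 3. *Elba1* and *Elba3*, which encode subunits of an early boundary factor, had 310, 689 and 6 counts and 276, 653 and 8 counts. *zen* and *scw*, which pattern the dorsal side of the blastoderm, had 42, 158 and 3 counts and 51, 126 and 1 counts. *CG43725* had 46, 173 and 0 counts, so that control 2 was at least 45.8-fold higher than the floor of 3 counts in control 3. In contrast *zld*, an early activator that is also used later, had 250.2, 222 and 216 CPM. The whole list, with *zld* in it, held 0.0354%, 0.04996% and 0.0231% of counts, a very small part of the fragments. Most of this share was *zld* in controls 1 and 3, so it does not measure the other members. Without controls 1, 2 and 3, the members past 1.5-fold numbered 6 of 8, 5 of 7 and 6 of 9. Of all genes tested, 5.86%, 3.15% and 6.21% passed.

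Genes of the cuticle separated the samples in another direction. Of 88 cuticle protein genes tested, 52 passed 1.5-fold (59.1%, beside 9.48% of all genes). Control 3 was the highest sample in 31 of the 52, beside 35.0% of all genes past 1.5-fold. Control 2 was the lowest in 33, a share near the 61.6% of all genes past 1.5-fold. Over all 88, control 3 was the highest in 55, beside 26.6% of all genes tested. The median difference from the mean of the samples was -0.12, -0.14 and 0.22 on the log2 scale in controls 1, 2 and 3. *TwdlN* had 1097, 643 and 1205 CPM, so that control 2 was low, and *TwdlD* 948, 1484 and 1521 CPM, so that control 1 was low. The *Osiris* genes went the other way from the cuticle proteins, with control 3 lowest in 15 of 16 tested genes, beside 32.7% of all genes tested, and a median of 0.12, 0.16 and -0.34. Of these, 6 passed 1.5-fold, beside 9.48% of all genes, and 0 of 16 did without control 3, beside 6.21% of all genes. Without controls 1, 2 and 3, 31 of 86, 18 of 88 and 32 of 88 cuticle genes passed. Of all genes tested, 5.86%, 3.15% and 6.21% passed in these settings. The trichome effectors were also lowest in control 3, for 8 of 12 genes, beside the same 32.7%, and 4 of the 12 passed, each highest in control 1 and lowest in control 3: *dyl* had 692, 597 and 398 CPM. Without controls 1, 2 and 3 the trichome count was 1, 4 and 0 of 12, beside the same 5.86%, 3.15% and 6.21% of all genes. The medians of these lists kept their signs with library totals and with RLE factors in place of TMM. The ages of the embryos were not measured, and their part in these differences was not tested.

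Midgut and cytochrome P450 genes differed as well. Of 36 midgut digestive genes tested, 18 passed 1.5-fold (50%, beside 9.48% of all genes). Without controls 1, 2 and 3 the count was 15 of 33, 11 of 39 and 16 of 37. Of all genes, 5.86%, 3.15% and 6.21% passed in these settings. Control 2 was lowest in 16 of the 18 and control 1 highest in 14, beside 61.6% and 44.5% of all genes past 1.5-fold. Over all 36, control 2 was lowest in 24, beside 32.6% of all genes tested. *alphaTry* and *Jon25Bii*, which encode digestive serine proteases and were chosen after their values were seen, had 511, 24 and 130 counts and 243, 12 and 82 counts. Trypsin genes are a cluster of similar copies, so their counts may be shared. Control 2 was highest in 7 of the 36, among them *mex1* and *Npc2g*. Of 57 cytochrome P450 genes tested, which act in detoxification and hormone synthesis, 18 passed (31.6%, beside the same 9.48%). Without controls 1, 2 and 3 the count was 10 of 55, 8 of 57 and 12 of 57, beside the same 5.86%, 3.15% and 6.21%. Of these 18, control 1 was highest in 14, beside 44.5% of all genes past 1.5-fold, and the lowest was control 2 in 11 and control 3 in 7. *Cyp6a8* had 127, 63.3 and 66.7 CPM. The neuronal genes were shifted slightly, with control 2 lowest in 35 of 40, beside 32.6% of all genes tested, and 1 of them passed 1.5-fold, beside 9.48%.

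**Figure D4:**
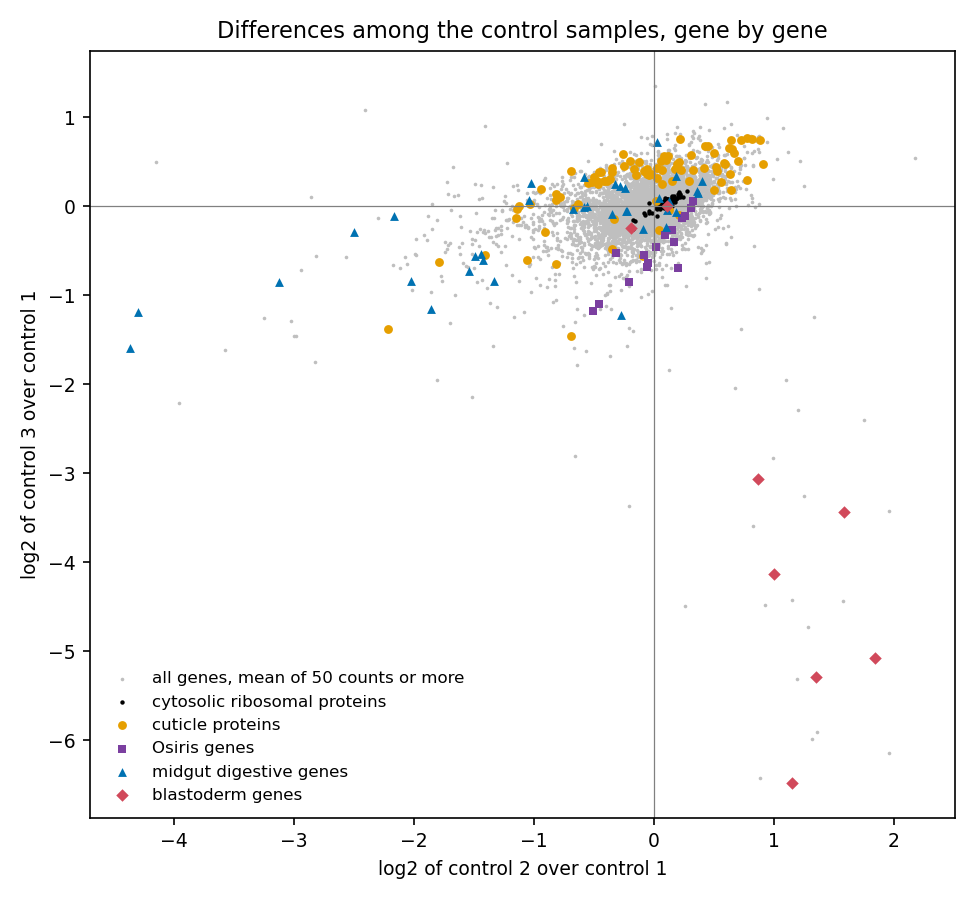
Each point is a gene with a mean of at least 50 counts, placed by the log2 of control 2 over control 1 (horizontal) and of control 3 over control 1 (vertical) after TMM scaling, with a count of 0 drawn as 0.5. Ribosomal protein genes sit at the centre, 6 of 8 blastoderm genes lie at the lower right, cuticle protein genes extend upward, *Osiris* genes downward, and midgut genes to the left.

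In other groups no gene reached this ratio. None of the 83 ribosomal protein genes tested passed 1.5-fold, nor any of the 42 translation factor and 72 mitochondrial ribosomal protein genes. The same held for 31 proteasome, 30 replication, 18 mitotic, 25 septate junction, 10 segment polarity and 8 Hox genes, beside 9.48% of all genes. In lists as short as those of segment polarity and Hox genes, no gene past 1.5-fold is near that share. Another patterning list, of gap and pair-rule genes, had 4 of 14 past (28.6%). Small shifts of whole groups were still present: control 1 was the lowest sample for 62 of the 83 ribosomal protein genes and control 2 the highest for 74, beside 34.6% and 39.9% of all genes tested, over medians of -0.05 and 0.05 on the log2 scale. With library totals these counts were 73 and 69.

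**Figure D5:**
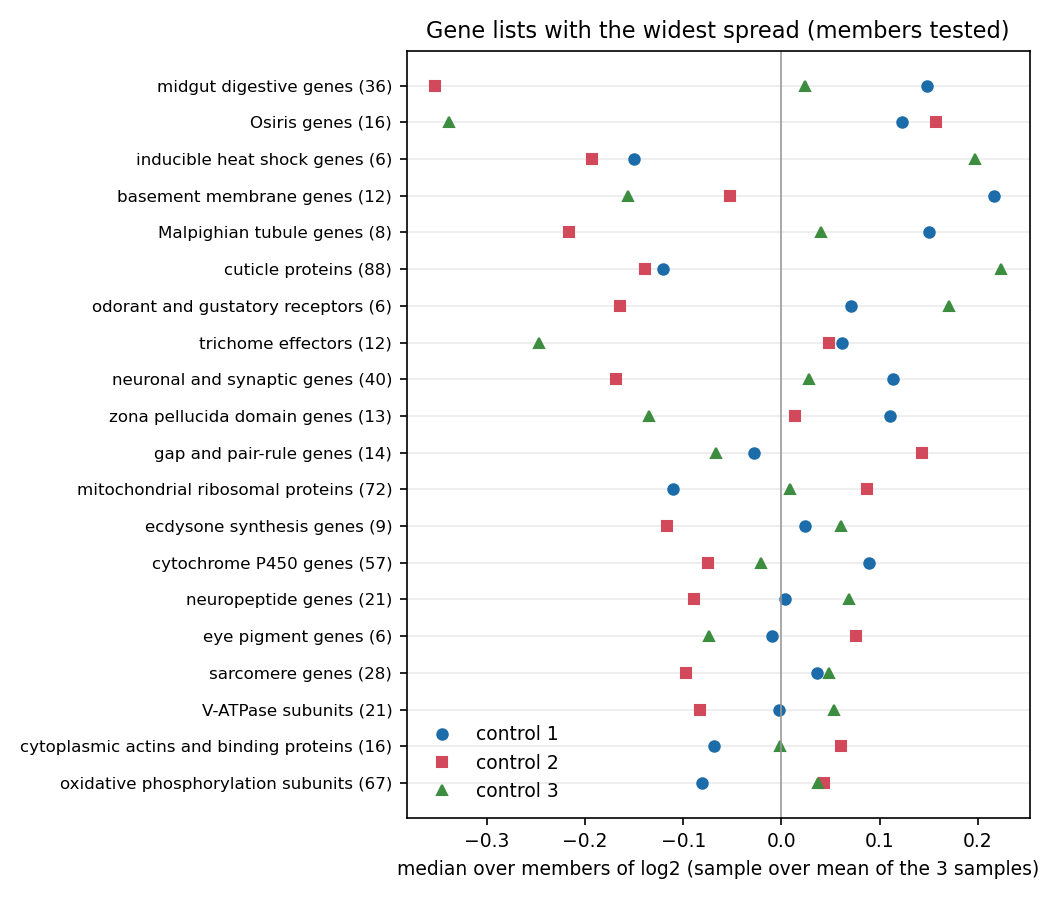
Median over the tested members of the log2 of each sample over the mean of the 3 samples, for the 20 lists with the widest spread among those with at least 6 tested members; the blastoderm genes, at -0.07, 1.01 and -4.02, are left out. Midgut genes are lowest in control 2 at -0.35, and *Osiris* genes lowest in control 3 at -0.34, where cuticle proteins are highest at 0.22.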

How the data were processed

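RNA was taken from stage 16 embryos, selected for poly(A), made into strand-specific libraries and sequenced as paired reads of 100 bases. Per the paper's methods and the submitters' notes, reads were aligned by the authors to the *Drosophila* genome dm6 and counted on a FlyBase annotation with STAR 2.6.1d, and genes were kept by their total over all samples. The authors deposited raw counts per gene and, beside them, DESeq2 1.32.0 normalized values (signal), which were checked to be the counts divided by 1 factor per sample and were not used further. The notes name a mouse build instead of dm6, but the gene identifiers are those of *Drosophila*; the strand setting of the counting is not given in the sources used here.

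CPM, TPM, ratios and lists were computed with Python 3.11.15, pandas 2.3.3 and scipy 1.17.1. Lengths came from an Ensembl annotation; 69 gene identifiers with 0.401% of counts did not match it and have no TPM. TMM factors and dispersion came from edgeR 4.0.16, RLE factors from DESeq2 1.42.0. Agreement used genes with a mean of at least 50 counts, a ratio of 1.5 and a chi-square test adjusted by Benjamini-Hochberg at 0.05, tested on simulated data. Named genes were the 30 highest by TPM and by counts, up to 4 members and the markers of each list, the 10 highest noncoding genes and the 15 largest ratios; other genes are named from counts or as contrasts. The lists and samples were chosen with earlier results of these data known, and 9 genes caught by a list's name pattern were taken out (*Cp1*, *Cp190*, *Cp110*, *Acp1*, *Acp65Aa*, *fra*, *Neto*, *Cyp1* and *Cyp33*). No label beyond separate samples describes the replicates, so their spread may be partly technical.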

Additional observations from a re-analysis of the deposited data

How the results depend on the processing

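Per length in place of counts, the number of genes reaching 50% was 269.7 and the share of the 100 highest genes 35.3%. The shares of ribosomal protein, sarcomere and cuticle protein genes were 27.6%, 2.68% and 3.95% of TPM by exonic length, and 28.5%, 2.85% and 2.93% by coding length, and 15 of the 30 highest genes per length remained by coding length. The number of genes at least 1.5-fold apart was 1826 from a mean of 10 counts, 489 from 200 counts and 273 at a ratio of 2. It lay between 301 and 596 with 1 sample left out, the number beyond counting error between 3232 and 4522, and the coefficient of variation between 0.102 and 0.141. Library totals and RLE factors gave 931 and 914 genes. The number of detected genes stayed between 8642 and 12904 under every rule tried. Of the other 51 lists, the share of 48 moved by more than 1 SD per exonic length and that of 48 per coding length. By exonic length the share of ecdysone response genes went from 0.224% to 0.0476%, that of fat body genes from 0.418% to 0.102%, that of neuropeptide genes from 0.0857% to 0.229% and that of antimicrobial peptide genes from 0.00386% to 0.0209%. Leaving out 1 of 3 samples cannot move a mean share by 1 SD, so it says nothing about the stability of the shares. Leaving out each sample for single lists was an alternative chosen after seeing the data. No paired analysis was possible because only 1 group was used. Depth limits the genes near 1 CPM, which correspond to 21.05 to 27.96 counts in a sample.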

Other observations

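A few genes outside the main groups differed between the control samples, and were chosen after their values were seen. The heat-inducible chaperone genes *Hsp68* and *Hsp26* had 224, 219 and 441 counts and 485, 396 and 709 counts in controls 1, 2 and 3. Control 3 was highest for both, although it had the fewest counts in all. *Hsp67Bc* of the same list had 45.1, 51.3 and 54.4 CPM, also highest in control 3 but with a smaller gap. *Irk2*, a potassium channel gene of the Malpighian tubule list, had 20.6, 6.83 and 17.9 CPM, with control 2 lowest. *AGO3* and *mael*, of the piRNA pathway that silences transposons in the germ line, had 16.7, 16.6 and 8.84 CPM and 11.1, 14.1 and 9.07 CPM, with control 3 lowest for both. *GstE3*, a glutathione transferase gene, had 127, 81.9 and 64.1 CPM, with control 1 highest.

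The white gene *w*, which encodes an eye pigment transporter, had 91, 100 and 67 counts, or 3.39 ± 0.298 CPM. *betaTub60D*, a beta-tubulin gene of differentiating muscle and other tissues, had 956, 1084 and 986 CPM, and it has no TPM because its identifier did not match the annotation.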
